A study of Homo sapiens with 18 samples.

Results

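The genes described here are the aminoacyl-tRNA synthetases of human cells, with the scaffold proteins AIMP1 and AIMP2. They were chosen by name and not by their values: a row belonged to the set where its gene symbol was on a list of 38, and all 38 were listed both among the 17110 genes of the HL-60 files and among the 17475 genes of the MOLM-13 files. By the ending of the symbol 19 were cytosolic enzymes (symbols ending in 1, with FARSA and FARSB, the subunits of the phenylalanine enzyme) and 16 were mitochondrial enzymes (symbols ending in 2). The other 3 were AIMP1, AIMP2 and TARS3, a further threonine enzyme. All 38 passed the filter on low values in both lines.

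A synthetase joins an amino acid to the tRNA that reads its codon, at the cost of ATP, and so sets which amino acid each codon means. The cytosol and the mitochondrion charge their own tRNAs, mostly with enzymes from separate nuclear genes. GARS1 and KARS1 serve both compartments, and EPRS1 joins the glutamate and proline enzymes in 1 polypeptide. Several cytosolic enzymes sit in the multisynthetase complex, which AIMP1, AIMP2 and EEF1E1 hold together. Many cytosolic synthetase genes are textbook targets of ATF4, the transcription factor that is made when amino acids run short or protein folding fails, and it binds composite elements together with C/EBP factors.

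Expression was measured by stranded total RNA sequencing in HL-60, a promyelocytic leukaemia line, and MOLM-13, a monocytic acute myeloid leukaemia line with a rearranged KMT2A gene and an internal duplication in FLT3. Each line received the solvent DMSO, DAC (decitabine, a cytidine analogue that enters DNA and traps DNA methyltransferases) or NTX-301, a compound known here by its code name, for 48 h (day 2), with 3 replicates in each of the 6 groups and 18 samples in all. HL-60 cells received 30 nM and MOLM-13 cells 15 nM by the labels, which do not say whether that holds for both drugs or for DAC alone, so that dose and line cannot be told apart, and NTX-301 and DAC cannot be said to be matched in dose. Both lines were grown in RPMI1640 medium with serum, and each is an established line, so that differences between them are differences between these lines only. Nothing in the labels says that the triplicates came from separate cultures, so that p-values measure the spread between these samples, which may be technical.

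All values are the deposited log2 expression values, which are neither counts nor values per gene length. Levels are therefore compared between samples of 1 line and not between genes. The read depth behind a value is unknown, so its error is taken from the replicates alone: the SD of a member over the 3 replicates of a group had a median of 0.025 in HL-60 and 0.037 in MOLM-13. Sums of the linear values moved with the groups: as a percentage of the DMSO mean of the line, the DAC samples ran from 98.5% to 99.2% and the NTX-301 samples from 97.7% to 99.1% in HL-60, and from 93.0% to 97.8% and from 94.7% to 95.4% in MOLM-13. The part of this in the results was not tested. In the MOLM-13 DAC sample of replicate 3 the 10 highest genes held 9.49% of the linear sum, against 10.8% to 11.8% in the other MOLM-13 samples. Myeloid genes such as MPO, PRTN3 and SPI1 were listed in both lines, and HOXA9 and MEIS1 were listed for MOLM-13 and not for HL-60. FLT3 was listed in both. Of the markers of T, B, erythroid, epithelial and fibroblast cells, CD79A and KRT8 were listed for HL-60 and CD3D, HBA1, HBB, KRT8, KRT18 and COL1A1 for MOLM-13.

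The promoter sequences are shown first because they set some cytosolic enzymes apart by a feature that the symbols do not hold. Of the 38 members, 32 had a window in the RefSeq promoter table (GRCh38.p14), running from 250 bases before the gene start to 50 after it; LARS1, VARS1, YARS1, AARS2, VARS2 and TARS3 are named only. The ATF4 and C/EBP composite element was searched as TGATGNAA on both strands. It was found in 6 of 16 cytosolic windows (37.5%) and 1 of 14 mitochondrial windows (7.14%). Among the 12054 genes of the files with a window, 240 held it (1.99%), and 3.67% of all 27305 windows did. The 7 stretches of 30 bases are printed 5′ to 3′ on the gene's strand, with the matched bases in capitals:
AARS1: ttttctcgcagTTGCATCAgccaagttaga
CARS1: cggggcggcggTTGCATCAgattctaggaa
IARS1: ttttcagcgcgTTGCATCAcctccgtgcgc
MARS1: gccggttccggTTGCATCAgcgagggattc
TARS1: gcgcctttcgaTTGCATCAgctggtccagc
NARS1: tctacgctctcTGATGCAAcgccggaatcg
YARS2: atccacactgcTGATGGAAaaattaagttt

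In AARS1, CARS1, IARS1, MARS1 and TARS1 the same 8 letters, TTGCATCA, stood on the gene's strand, and NARS1 held their reverse complement, TGATGCAA. YARS2, the mitochondrial tyrosine enzyme, held the variant TGATGGAA. Coordinates are those of the printed 30 bases, and positions are those of the 8 matched bases, counted from the gene start at 0 with negative positions before it. The AARS1 stretch lies at chr16:70289675-70289704 on the minus strand, with the match from position -187 to -180, and that of YARS2 at chr12:32756076-32756105 (minus) has it from -197 to -190, both far upstream. In IARS1 (chr9:92293692-92293721, minus) the match lay just before the start, from -13 to -6. It ran across the start in CARS1 (chr11:3057407-3057436, minus, from -2 to 5) and in MARS1 (chr12:57488053-57488082, plus, from -4 to 3). In TARS1 (chr5:33440956-33440985, plus, from 2 to 9) and NARS1 (chr18:57621804-57621833, minus, from 14 to 21) it lay just after it. None of the 7 overlapped a match of the 3 other motifs searched. Those were the E-box CACGTG (4 of 32 members, 12.5%, against 10.1% of the genes in the files), the CCAAT box (17 members, 53.1%, against 36.8%) and the ETS core CCGGAAG (14 members, 43.8%, against 18.8%). The windows of HARS1 and HARS2 share 184 bases and each held 2 ETS matches, so the same letters may be counted for both. CpG dinucleotides, the sites that DNA methyltransferases act on, had a median of 23 per window in the members and 25 in the genes of the files. A match is a run of letters and not a measured binding site.

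The 250 bases before the start of AARS1, the alanine enzyme that fell in each drug group of both lines, and of QARS1, the glutamine enzyme that did not pass the test against DMSO in any of them, are set side by side with the element in capitals:
AARS1: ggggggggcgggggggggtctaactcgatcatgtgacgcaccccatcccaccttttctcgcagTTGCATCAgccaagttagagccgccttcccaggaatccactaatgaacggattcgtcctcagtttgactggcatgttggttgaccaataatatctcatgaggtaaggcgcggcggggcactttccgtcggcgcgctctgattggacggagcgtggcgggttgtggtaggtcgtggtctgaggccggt
QARS1: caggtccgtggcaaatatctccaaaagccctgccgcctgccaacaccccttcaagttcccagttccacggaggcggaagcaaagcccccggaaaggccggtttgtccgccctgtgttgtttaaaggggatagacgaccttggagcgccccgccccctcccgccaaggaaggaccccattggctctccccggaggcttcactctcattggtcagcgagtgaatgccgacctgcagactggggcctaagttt

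The AARS1 stretch lies at chr16:70289507-70289756 and that of QARS1 at chr3:49104758-49105007, both on the minus strand. AARS1 held 1 match of the element and QARS1 held no such letters in its window. The pair is set side by side for its results in these data, so it does not show that the element goes with a fall. EARS2, MARS2, AIMP1 and AIMP2 also fell in all 4 comparisons and held no match, while YARS2 did so with 1. CARS1 and TARS1 held a match and passed with neither drug in HL-60.

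The first question was what each drug did to the synthetases against DMSO. The share of members that passed the test (limma, Benjamini-Hochberg adjusted p-value under 0.05 over all genes of a line) was high in MOLM-13: 28 of 38 with DAC (73.7%) and 27 of 38 with NTX-301 (71.1%). Of all genes tested there, 36.6% passed with DAC (15.4% higher, 21.2% lower) and 45.1% with NTX-301 (20.3% higher, 24.8% lower). Genes whose mean lay in the range of the members (10207 genes in MOLM-13 and 9696 in HL-60) passed more often than all genes, 50.7% with DAC and 60% with NTX-301. In MOLM-13, 27 members fell with DAC and VARS2 rose, and all 27 called with NTX-301 fell. Without DAC replicate 3, the sample that stood apart, 25 fell with DAC and 1 rose, QARS1 being called higher in place of VARS2; 16 of those that fell were cytosolic and 7 mitochondrial, and the cytosolic minus mitochondrial difference of medians was -0.073. In HL-60, 9 members passed with DAC (23.7%), against 24.2% of all genes (11.6% higher, 12.6% lower) and 33.6% of those in the members' range (19.5% lower). That share is near the background and says nothing about the family. With NTX-301, 20 passed in HL-60 (52.6%), against 37.4% of all genes and 50.3% of those in the members' range, 18 lower and 2 higher. Of all genes there 18.3% were higher and 19.2% lower, and of those in the range 30% were lower. The samples of the compared groups did not overlap for 30 members in MOLM-13 with DAC (47.9% of all genes) and 32 with NTX-301 (55.8%). In HL-60 that held for 10 members with DAC (38.5% of all genes) and 24 with NTX-301 (47.2%).

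**Figure D1:**
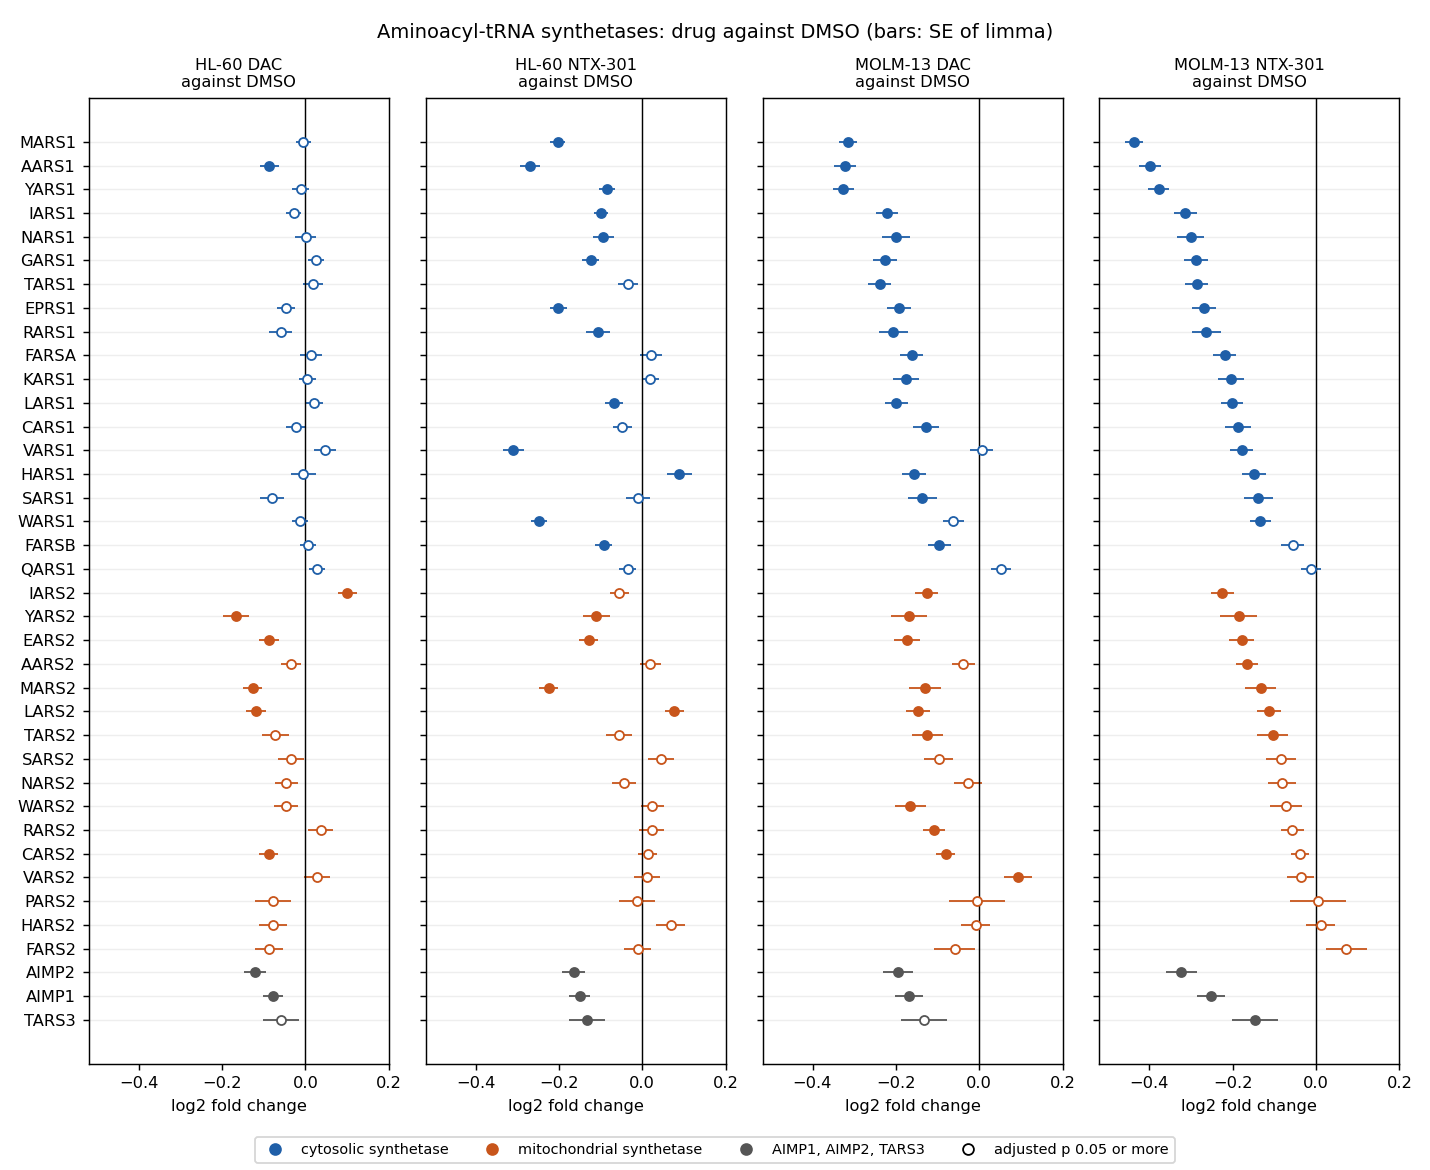
Log2 fold change against DMSO (x axis) for each of the 38 members (y axis) in the 4 drug groups, with the SE of limma as bars. Filled points passed the test and open points did not, and the cytosolic enzymes (blue) lie furthest left in MOLM-13, where MARS1 reached -0.44 with NTX-301.

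Among the cytosolic enzymes of MOLM-13, 16 of 19 fell with DAC and 17 of 19 with NTX-301, and 15 fell with both. Their median log2 fold change was -0.19 with DAC and -0.22 with NTX-301, where that of all genes tested was 0.0013 and 0.0034 and that of genes in the members' range was -0.041 and -0.052. That range is bounded by the lowest and the highest member, PARS2 and EPRS1. Its genes are therefore not matched in level to the cytosolic enzymes alone. Of all genes tested, 21.2% were called lower with DAC and 24.8% with NTX-301, and of those in the members' range 34.2% and 39.9%. The size of these falls rests on the scaling. After quantile normalization the cytosolic medians were -0.082 and -0.12, 13 of the 16 and 14 of the 17 were still called lower, and 13 and 14 had values that differed by over 1.5 times from those given here. The 3 largest falls with either drug were those of MARS1, AARS1 and YARS1, which were -0.23, -0.24 and -0.23 with DAC and -0.33, -0.30 and -0.27 with NTX-301 on that scaling. Shares and medians over all genes are not given on that scaling. Whether the members stand apart from other genes there cannot be read from these values.

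MARS1, the methionine enzyme, was at 13.58, 13.57 and 13.58 with DMSO, at 13.26, 13.26 and 13.25 with DAC and at 13.11, 13.15 and 13.15 with NTX-301. The 3 groups did not overlap, and the NTX-301 samples were the lowest. MARS1 fell by 19.6% with DAC (log2 fold change -0.32, SE 0.022, adjusted p = 1.80e-06 by limma) and fell by 26.2% with NTX-301 (-0.44, SE 0.022, adjusted p = 1.64e-07). AARS1, the alanine enzyme, was at 13.49, 13.40 and 13.50 with DMSO, at 13.14, 13.13 and 13.15 with DAC and at 13.05, 13.05 and 13.09 with NTX-301. Again each group stood apart from the others. AARS1 fell by 20.0% with DAC (-0.32, SE 0.027, adjusted p = 6.86e-06) and fell by 24.1% with NTX-301 (-0.40, SE 0.027, adjusted p = 1.04e-06). YARS1, the tyrosine enzyme, was at 13.70, 13.73 and 13.72 with DMSO, at 13.40, 13.42 and 13.35 with DAC and at 13.37, 13.34 and 13.32 with NTX-301. Both drug groups lay below DMSO and overlapped each other. YARS1 fell by 20.2% with DAC (-0.33, SE 0.025, adjusted p = 4.09e-06) and fell by 23.0% with NTX-301 (-0.38, SE 0.025, adjusted p = 9.68e-07).

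EPRS1, the glutamate and proline enzyme, was at 15.27, 15.35 and 15.33 in MOLM-13 with DMSO, at 15.18, 15.11 and 15.08 with DAC and at 15.06, 15.05 and 15.03 with NTX-301. The groups followed each other without overlap, and the falls were -0.19 (SE 0.029) and -0.27 (SE 0.029), or -0.061 and -0.126 after quantile normalization. GARS1, the glycine enzyme of both compartments, was at 13.61, 13.61 and 13.59 with DMSO, at 13.37, 13.41 and 13.35 with DAC and at 13.38, 13.29 and 13.28 with NTX-301. Every drug sample lay below every DMSO sample, with falls of -0.23 (SE 0.029) and -0.29 (SE 0.029), or -0.14 and -0.19 after quantile normalization. KARS1, the lysine enzyme of both compartments, was at 14.13, 14.22 and 14.22 with DMSO, at 14.04, 14.03 and 13.97 with DAC and at 14.01, 13.99 and 13.95 with NTX-301. It too lay lower in each drug sample, by -0.17 (SE 0.031) and -0.20 (SE 0.031), or -0.082 and -0.097 after quantile normalization. The other cytosolic enzymes that fell with both drugs were CARS1, FARSA, HARS1, IARS1, LARS1, NARS1, RARS1, SARS1 and TARS1, which charge cysteine, phenylalanine, histidine, isoleucine, leucine, asparagine, arginine, serine and threonine tRNAs. Their log2 fold changes ran from -0.13 (CARS1) to -0.24 (TARS1) with DAC and from -0.14 (SARS1) to -0.31 (IARS1) with NTX-301. The quantile-normalized values of IARS1 were -0.077 and -0.17, and those of LARS1 -0.10 and -0.061.

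The cytosolic enzymes of MOLM-13 that did not fall with both drugs were FARSB, QARS1, VARS1 and WARS1. QARS1 was at 13.85, 13.86 and 13.89 with DMSO, at 13.95, 13.93 and 13.88 with DAC and at 13.85, 13.85 and 13.87 with NTX-301. These groups overlapped, and neither difference passed the test (0.05, adjusted p = 0.110, and -0.01, adjusted p = 0.709). After quantile normalization QARS1 was called higher with both drugs, at 0.144 for DAC (adjusted p = 0.000291) and 0.090 for NTX-301 (adjusted p = 0.0034). VARS1, the valine enzyme, was at 14.20, 14.10 and 14.19 with DMSO, at 14.16, 14.17 and 14.17 with DAC and at 14.02, 13.96 and 13.98 with NTX-301. It fell with NTX-301 (-0.18, SE 0.028, adjusted p = 0.000288), where its groups did not overlap, and had a value of 0.01 with DAC (adjusted p = 0.894). On the quantile-normalized scale VARS1 was called higher with DAC (0.0998, adjusted p = 0.0221 by limma). WARS1, the tryptophan enzyme, was at 12.53, 12.57 and 12.56 with DMSO, at 12.49, 12.48 and 12.50 with DAC and at 12.45, 12.39 and 12.42 with NTX-301. It fell with NTX-301 (-0.13, SE 0.025, adjusted p = 0.000965) and missed the threshold with DAC (-0.06, adjusted p = 0.0705), although all 3 DAC samples lay below DMSO. FARSB fell with DAC (-0.10), a call that ended without DMSO replicate 2 or DAC replicate 1, and missed the threshold with NTX-301 (-0.06, adjusted p = 0.124). Quantile normalization ended the falls of CARS1 and FARSB with DAC, of VARS1 and WARS1 with NTX-301, and of SARS1 with both.

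**Figure D2:**
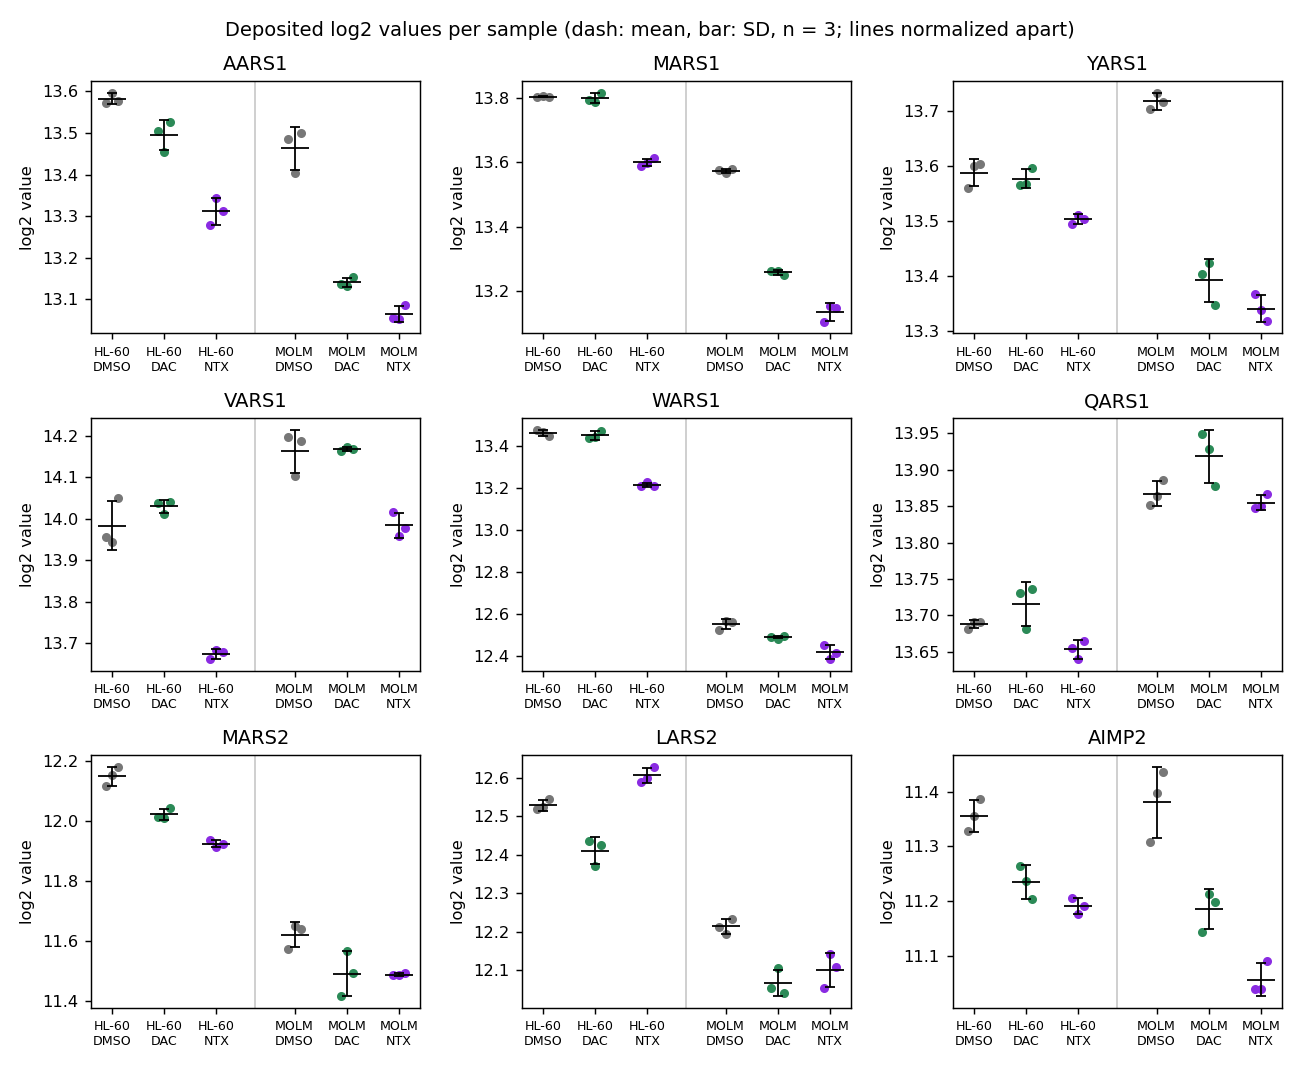
Deposited log2 values (y axis) of 9 members in each of the 18 samples, grouped by line and treatment (x axis); points are samples, dashes are group means and bars are SDs (n = 3). MARS1, AARS1 and YARS1 step down in both MOLM-13 drug groups, whereas VARS1 and WARS1 drop in HL-60 with NTX-301 and not with DAC, and the QARS1 groups lie close together.

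In HL-60 the drugs parted ways. With DAC, AARS1 was the 1 cytosolic enzyme of 19 that passed, and the median over the 19 was -0.0047. Of all genes, 12.6% were called lower. With NTX-301, 12 of 19 fell and HARS1 rose, with a median of -0.093, where 19.2% of all genes and 30% of those in the members' range were called lower and the median over that range was -0.019.

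AARS1 was at 13.57, 13.60 and 13.58 in HL-60 with DMSO, at 13.51, 13.46 and 13.53 with DAC and at 13.28, 13.34 and 13.31 with NTX-301. All 3 groups stood apart, with falls of -0.09 for DAC (SE 0.024, adjusted p = 0.0164) and -0.27 for NTX-301 (SE 0.024, adjusted p = 7.73e-07). The call with DAC ended without DMSO replicate 2 or without DAC replicate 2, which left 0 cytosolic enzymes called; without DMSO replicate 3 there were 3 and without DAC replicate 3 there were 2. VARS1 was at 13.96, 13.94 and 14.05 with DMSO, at 14.04, 14.01 and 14.04 with DAC and at 13.66, 13.68 and 13.68 with NTX-301. The NTX-301 samples lay far below the rest, and VARS1 fell by 19.3% (-0.31, SE 0.026, adjusted p = 4.90e-07). WARS1 was at 13.48, 13.47 and 13.45 with DMSO, at 13.44, 13.44 and 13.47 with DAC and at 13.21, 13.23 and 13.21 with NTX-301. It fell by 15.8% with NTX-301 (-0.25, SE 0.020, adjusted p = 3.00e-07) and had a value of -0.01 with DAC. MARS1 was at 13.80, 13.81 and 13.80 with DMSO, at 13.79, 13.79 and 13.82 with DAC and at 13.59, 13.60 and 13.61 with NTX-301, with the NTX-301 samples lowest (-0.20, SE 0.018, adjusted p = 9.37e-07) and a value of -0.0047 with DAC.

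EPRS1 was at 15.34, 15.35 and 15.32 in HL-60 with DMSO, at 15.30, 15.25 and 15.32 with DAC and at 15.13, 15.12 and 15.16 with NTX-301. The DAC samples overlapped DMSO (-0.05, adjusted p = 0.133) and the NTX-301 samples lay below both (-0.20, adjusted p = 4.65e-06). GARS1 was at 13.78, 13.81 and 13.78 with DMSO, at 13.81, 13.82 and 13.83 with DAC and at 13.64, 13.68 and 13.68 with NTX-301, a fall of -0.12 with NTX-301 (SE 0.020). KARS1 was at 14.02 in all 3 DMSO samples, at 14.03, 13.99 and 14.06 with DAC and at 14.03, 14.04 and 14.05 with NTX-301. Its differences from DMSO (0.0049 and 0.019) did not pass the test. Their sign turned under other settings, and after quantile normalization the NTX-301 difference was called higher (0.054, adjusted p = 0.0372). QARS1 was at 13.68, 13.69 and 13.69 with DMSO, at 13.73, 13.68 and 13.74 with DAC and at 13.65, 13.64 and 13.66 with NTX-301, and neither difference passed (0.03 and -0.03). FARSB, IARS1, LARS1, NARS1, RARS1 and YARS1 also fell with NTX-301, by values from -0.07 (LARS1) to -0.11 (RARS1). The LARS1 call ended without DMSO replicate 1 or 2 or NTX-301 replicate 1 or 2, and that of RARS1 ended with quantile normalization.

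HARS1, the histidine enzyme, was at 12.03, 12.06 and 12.09 in HL-60 with DMSO and at 12.16, 12.11 and 12.18 with NTX-301. It rose by 6.36% (0.09, SE 0.030, adjusted p = 0.0297), without overlap, while it fell in MOLM-13 with both drugs. The call in HL-60 ended without DMSO replicate 1 or 2, without NTX-301 replicate 1 or 3, after centring and without the variance trend. HARS1 and HARS2 start back to back, 85 bases apart, and share exon bases on opposite strands, which make up 9.49% of HARS1 and 14.2% of HARS2 in GENCODE 29. The sources used here do not say whether strand was used in counting, so that reads of the pair cannot be told apart with certainty.

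Fewer mitochondrial than cytosolic enzymes were called in 3 of the 4 drug groups, and more in HL-60 with DAC. In MOLM-13, 9 of 16 fell with DAC, 7 of 16 fell with NTX-301, and 6 fell with both (EARS2, IARS2, LARS2, MARS2, TARS2 and YARS2), with medians of -0.10 and -0.083. In HL-60, 5 of 16 fell and IARS2 rose with DAC (median -0.075), and 3 fell and LARS2 rose with NTX-301 (median -0.00022). Of the genes in the members' range 34.2% and 39.9% fell in MOLM-13 with DAC and NTX-301, and 19.5% and 30% in HL-60. The 7 of 16 with NTX-301 in MOLM-13 are near the 39.9% of that range and above the 24.8% of all genes called lower. The 3 of 16 with NTX-301 in HL-60 are near the 19.2% of all genes called lower there and below the 30% of the range. The reading thus turns on the background chosen, and neither count is taken as a result about the mitochondrial enzymes. Without MOLM-13 DMSO replicate 2 the MOLM-13 calls with DAC went from 10 to 6. Quantile normalization left 4 mitochondrial enzymes called with each drug in MOLM-13, ending the calls of LARS2, MARS2 and TARS2 with both, and centring each sample on its median gave 12 with NTX-301, so that these counts rest on the scaling.

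YARS2, the mitochondrial tyrosine enzyme, was at 11.52, 11.51 and 11.58 in HL-60 with DMSO, at 11.42, 11.36 and 11.34 with DAC and at 11.39, 11.42 and 11.48 with NTX-301. Both drug groups lay below DMSO: YARS2 fell by 10.9% with DAC (-0.17, SE 0.031, adjusted p = 0.00171) and fell by 7.35% with NTX-301 (-0.11, SE 0.031, adjusted p = 0.0130). The MOLM-13 values were 11.36, 11.41 and 11.32 with DMSO, 11.21, 11.15 and 11.21 with DAC and 11.27, 11.09 and 11.16 with NTX-301, again lower in every drug sample (-0.17, SE 0.044, and -0.19, SE 0.044). The HL-60 call with NTX-301 ended without DMSO replicate 3 or NTX-301 replicate 1. MARS2, the mitochondrial methionine enzyme, was at 12.12, 12.15 and 12.18 in HL-60 with DMSO, at 12.02, 12.01 and 12.04 with DAC and at 11.94, 11.91 and 11.93 with NTX-301. Its groups stepped down without overlap (-0.13, SE 0.023, adjusted p = 0.00151, and -0.22, SE 0.023, adjusted p = 4.26e-06). In MOLM-13 it was at 11.58, 11.65 and 11.64 with DMSO, at 11.42, 11.57 and 11.49 with DAC and at 11.49 in all 3 samples with NTX-301. Both falls there were -0.13 (SE 0.037), and the call with DAC ended without DMSO replicate 2 or 3 or DAC replicate 1. EARS2, the mitochondrial glutamate enzyme, fell in all 4 comparisons too, with values from -0.09 to -0.18; its fall in HL-60 with DAC was not called without DAC replicate 1. TARS2, the mitochondrial threonine enzyme, fell in MOLM-13 (-0.13 and -0.10); its calls ended with quantile normalization and without DMSO replicate 1 or 2, and also without DAC replicate 2 or 3 for DAC and without any NTX-301 replicate for NTX-301.

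IARS2, the mitochondrial isoleucine enzyme, was at 13.34, 13.33 and 13.30 in HL-60 with DMSO, at 13.42, 13.39 and 13.46 with DAC and at 13.27, 13.24 and 13.29 with NTX-301. The DAC samples were the highest, a rise of 7.25% (0.10, SE 0.022, adjusted p = 0.00508), and those with NTX-301 lay just under DMSO (-0.05, adjusted p = 0.0721). IARS2 fell in both MOLM-13 drug groups (-0.13 and -0.22), where quantile normalization ended the call with DAC. LARS2, the mitochondrial leucine enzyme, was at 12.52, 12.52 and 12.54 in HL-60 with DMSO, at 12.44, 12.37 and 12.43 with DAC and at 12.59, 12.60 and 12.63 with NTX-301. It moved both ways without overlap, down with DAC (-0.12, SE 0.023, adjusted p = 0.00225) and up with NTX-301 (0.08, SE 0.023, adjusted p = 0.0182). The rise was not called after centring or without DMSO replicate 1 or 2 or NTX-301 replicate 3. VARS2, the mitochondrial valine enzyme, was at 11.54, 11.51 and 11.44 in MOLM-13 with DMSO, at 11.57, 11.56 and 11.64 with DAC and at 11.45, 11.47 and 11.46 with NTX-301. Its rise with DAC (0.09, SE 0.033, adjusted p = 0.0452) was lost under 10 of 16 alternatives, among them the replicate block and centring. They also included leaving out DMSO replicate 2 or 3, DAC replicate 1 or 3, or any NTX-301 replicate.

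FARS2, HARS2, NARS2, PARS2 and SARS2 did not pass against DMSO in any of the 4 comparisons, with values from -0.10 to 0.07. PARS2, the mitochondrial proline enzyme, had the widest spread of the members, with an SD of 0.11 in the MOLM-13 DAC group. SARS2 shares 67.4% of its exon bases with another gene model on its own strand and 15.8% with MRPS12 on the other, so that its values are uncertain. AARS2, the mitochondrial alanine enzyme, fell in MOLM-13 with NTX-301 (-0.17), and RARS2 (-0.11), CARS2 (-0.08) and WARS2 (-0.16) fell there with DAC. The RARS2 and CARS2 calls ended with quantile normalization, and that of CARS2 also without DMSO replicate 2 or DAC replicate 3.

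The scaffold proteins fell with both drugs in both lines. AIMP2 was at 11.33, 11.36 and 11.39 in HL-60 with DMSO, at 11.27, 11.24 and 11.20 with DAC and at 11.21, 11.18 and 11.19 with NTX-301. The MOLM-13 samples stood at 11.31, 11.40 and 11.44 with DMSO, at 11.14, 11.21 and 11.20 with DAC and at 11.04, 11.04 and 11.09 with NTX-301. Every drug sample lay below every DMSO sample of its line, and the falls were -0.12 and -0.17 in HL-60 (SE 0.026) and -0.19 and -0.32 in MOLM-13 (SE 0.037). AIMP2 shares 38.7% of its exon bases with EIF2AK1 on the opposite strand, and EIF2AK1 had a value of -0.087 in MOLM-13 with NTX-301 (adjusted p = 0.0208). AIMP1 was at 12.40, 12.38 and 12.34 in HL-60 with DMSO, at 12.34, 12.27 and 12.28 with DAC and at 12.22, 12.21 and 12.24 with NTX-301. The MOLM-13 samples were at 12.59, 12.56 and 12.61 with DMSO, at 12.49, 12.39 and 12.36 with DAC and at 12.29, 12.34 and 12.36 with NTX-301. No drug sample reached its line's DMSO range, and the falls were -0.08 and -0.15 in HL-60 (SE 0.025) and -0.17 and -0.25 in MOLM-13 (SE 0.034), the former -0.11 after quantile normalization. The fall in HL-60 with DAC was lost under 8 of 16 alternatives, among them centring, quantile normalization and leaving out DMSO replicate 1 or 2, DAC replicate 2 or 3, or NTX-301 replicate 1. TBCK, which shares 11.7% of the exon bases of AIMP1 on the opposite strand, rose in MOLM-13 (0.14 and 0.19). With the scaffold proteins, 8 of 9 listed members of the multisynthetase complex fell in MOLM-13 with each drug, QARS1 being the exception; in HL-60 it was 2 with DAC and 7 with NTX-301. Of all genes, 21.2% and 24.8% were called lower in MOLM-13, and 12.6% and 19.2% in HL-60. For genes in the members' range those shares were 34.2% and 39.9%, and 19.5% and 30%.

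TARS3 was at 10.12, 10.02 and 9.96 in HL-60 with DMSO, at 10.02, 9.89 and 10.01 with DAC and at 9.89, 9.91 and 9.90 with NTX-301. For MOLM-13 it was at 9.73, 9.84 and 9.79 with DMSO, at 9.76, 9.65 and 9.56 with DAC and at 9.65, 9.69 and 9.59 with NTX-301. The DAC samples overlapped DMSO in both lines, and those with NTX-301 did not. Its falls with NTX-301 (-0.13 in HL-60, adjusted p = 0.0265, and -0.15 in MOLM-13, adjusted p = 0.0465) were lost under 6 and 8 of 16 alternatives. Without the variance trend both were lost. In HL-60 so were they without DMSO replicate 1 or 2 or any NTX-301 replicate, and in MOLM-13 with a pseudocount of 1 or without DMSO replicate 2 or 3, DAC replicate 2 or any NTX-301 replicate.

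The second question was how the cytosolic enzymes compared with their mitochondrial counterparts. The median log2 fold change of the 19 cytosolic enzymes lay below that of the 16 mitochondrial ones in 3 of the 4 drug groups. The difference was -0.136 in MOLM-13 with NTX-301 (SD 0.015 over the 3 drug samples), -0.090 in MOLM-13 with DAC (SD 0.045) and -0.093 in HL-60 with NTX-301 (SD 0.018). In HL-60 with DAC it was 0.070 (SD 0.017), with the mitochondrial enzymes lower. These differences are descriptions of the 2 lists, with no test. The lists also differ in level, the deposited values of the cytosolic enzymes being mostly the higher ones. These values are not per gene length, so the gap is one of deposited values and not of expression between genes. With DMSO in MOLM-13 the cytosolic means ran from 11.8 (CARS1) to 15.3 (EPRS1). The mitochondrial ones ran from 8.49 (PARS2) to 13.7 (IARS2). The part of level in the differences was not tested. With quantile normalization the MOLM-13 difference with DAC was -0.022, within the spread between those samples, and that with NTX-301 was -0.080.

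By sample, the cytosolic median against the DMSO mean was -0.14, -0.19 and -0.23 in the MOLM-13 DAC samples and -0.22, -0.23 and -0.23 in those with NTX-301. The mitochondrial median was -0.095, -0.066 and -0.11, and then -0.10, -0.082 and -0.094. In HL-60 the cytosolic medians were -0.0061, -0.023 and 0.013 with DAC and -0.094, -0.10 and -0.069 with NTX-301. The mitochondrial ones were -0.045, -0.090 and -0.058 with DAC, and -0.0058, 0.0078 and 0.0073 with NTX-301. The cytosolic medians of all NTX-301 samples were below the mitochondrial ones of the same samples, and in the 3 HL-60 DAC samples the order was turned.

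**Figure D3:**
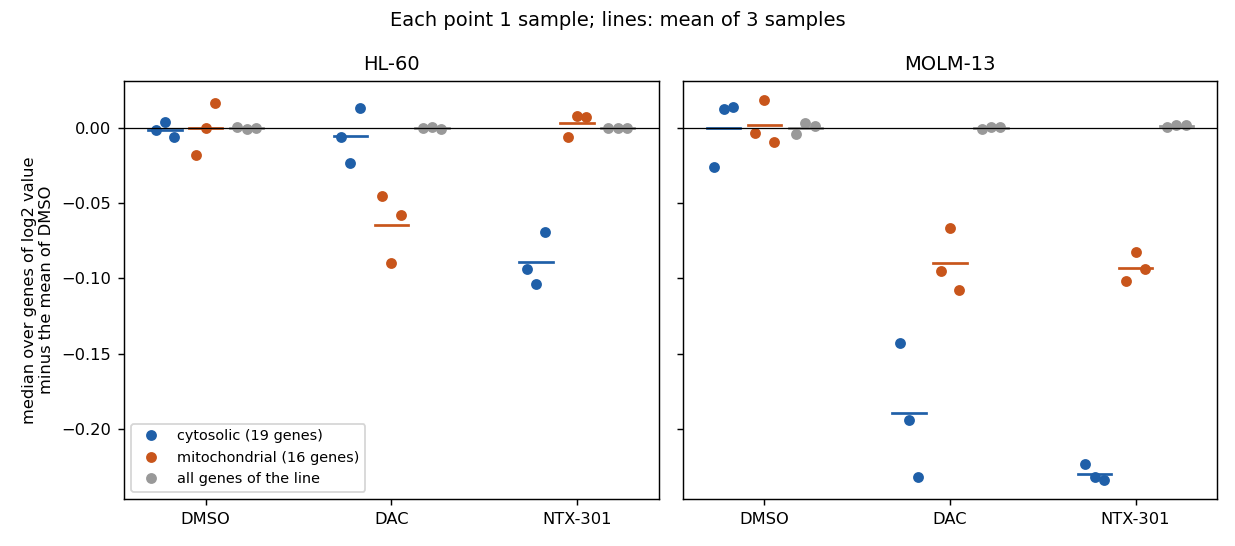
Median over genes of the log2 value minus the DMSO mean (y axis) in each sample by treatment (x axis), for the 19 cytosolic enzymes, the 16 mitochondrial enzymes and all genes; lines are means of 3 samples. The cytosolic points of MOLM-13 sit between -0.14 and -0.23 in the drug groups, below the mitochondrial points, and in HL-60 with DAC the mitochondrial points are the lower ones.

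Matched by amino acid there were 15 pairs, with FARSA and FARSB each set against FARS2. The cytosolic member of the pair had the lower log2 fold change in all 15 pairs in MOLM-13 with NTX-301 and in 14 with DAC, WARS1 being the exception. In HL-60 it was lower in 10 pairs with NTX-301 and in 4 with DAC. The median difference over the pairs was -0.159 in MOLM-13 with NTX-301, -0.098 with DAC, -0.055 in HL-60 with NTX-301 and 0.065 with DAC. The mitochondrial enzymes of methionine and tyrosine were the lower ones in HL-60 with NTX-301, along with FARS2 against FARSA, HARS2 against HARS1 and TARS2 against TARS1.

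Among the 16 cytosolic enzymes with a promoter window, the 6 that held the composite element printed above (AARS1, CARS1, IARS1, MARS1, NARS1 and TARS1) all fell in MOLM-13 with each drug, with medians of -0.23 for DAC and -0.31 for NTX-301. Of the 10 without it, 8 fell with DAC and 8 with NTX-301, with medians of -0.16 and -0.18. In HL-60 with NTX-301 the medians were -0.096 (4 of 6 fell) and -0.064 (5 of 10 fell), and with DAC -0.014 and -0.00030. Of all genes 21.2% were called lower in MOLM-13 with DAC, 24.8% there with NTX-301 and 19.2% in HL-60 with NTX-301. For genes in the members' range those shares were 34.2%, 39.9% and 30%. The ranges of the groups with and without the element overlapped in each comparison, and whether the element bears on the difference was not tested.

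The third question was how NTX-301 differed from DAC within a line. In HL-60, 19 of 38 members passed (50%, against 30.4% of all genes and 42.3% of those in the members' range), 15 lower and 4 higher with NTX-301. Of all genes 15% were lower and 15.4% higher, and of those in the range 22.7% were lower; the drug groups did not overlap for 23 members, and for 44.4% of all genes. Of the cytosolic enzymes 12 were lower and HARS1 was higher. Of the mitochondrial enzymes 3 were higher (LARS2, HARS2 and CARS2) and 2 lower (IARS2 and MARS2). VARS1 (-0.36, 95% interval -0.41 to -0.30), WARS1 (-0.24) and MARS1 (-0.20) were the lowest with NTX-301 relative to DAC. LARS2 was the highest (0.20, SE 0.023, adjusted p = 2.51e-05). HARS2, the mitochondrial histidine enzyme, was at 11.02, 11.08 and 11.12 with DMSO, at 11.03, 10.93 and 11.02 with DAC and at 11.18, 11.13 and 11.11 with NTX-301. Its drug groups did not overlap (0.15, SE 0.034, adjusted p = 0.00485), with DMSO between them. CARS2, the mitochondrial cysteine enzyme, was at 12.67, 12.65 and 12.71 with DMSO, at 12.61, 12.58 and 12.58 with DAC and at 12.67, 12.71 and 12.69 with NTX-301. It was lower with DAC than with either other treatment (0.10 for NTX-301 against DAC, SE 0.023). After quantile normalization 19 members passed, 12 lower and 7 higher, and 16 of these were called in the same direction without it. Some calls here rest on few libraries. The HARS1 call (0.09) ended without DAC replicate 1 or 2 or NTX-301 replicate 1 or 3, and the QARS1 call (-0.06) without DAC replicate 1 or 3 or NTX-301 replicate 1 or 2. The AIMP1 call (-0.07) ended without DMSO replicate 2, DAC replicate 1 or 3, or any NTX-301 replicate.

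In MOLM-13, 4 of 38 members passed between NTX-301 and DAC, against 7.42% of all genes (3.01% higher, 4.41% lower) and 11.1% in the members' range (6.9% lower), a share near the background. The groups did not overlap for 16 members (27.3% of all genes). All 4 called were lower with NTX-301: VARS1 (-0.18, SE 0.028, adjusted p = 0.00336), MARS1 (-0.12, SE 0.022, adjusted p = 0.00795), VARS2 (-0.13, SE 0.033, adjusted p = 0.0366) and AARS2 (-0.13, SE 0.027, adjusted p = 0.0183). AARS2 was at 12.60, 12.62 and 12.60 with DMSO, at 12.57, 12.59 and 12.55 with DAC and at 12.44, 12.40 and 12.49 with NTX-301, with the NTX-301 samples below all others. Without NTX-301 replicate 2 there were 2 calls. The AARS2 call ended without that library or without DAC replicate 2. That of VARS2 ended without DAC replicate 1 or 3, without any NTX-301 replicate, and under the replicate block (adjusted p = 0.080). For the members that missed the threshold the intervals still allow a difference: the 95% interval was -0.14 to -0.016 for AARS1, -0.11 to 0.0044 for YARS1, -0.15 to -0.034 for IARS1 and -0.062 to 0.055 for LARS1.

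The fourth question was whether a drug effect differed between the lines, tested by taking the HL-60 effect from the MOLM-13 effect. For DAC, 17 members passed, all more negative in MOLM-13: 15 cytosolic enzymes, IARS2 and RARS2. Of all 15474 genes tested, 30% passed, 12.1% more positive and 17.9% more negative in MOLM-13. Of the 8995 in the members' range 38.7% passed and 26.5% were more negative. The largest differences were those of YARS1 (-0.31, SE 0.031, adjusted p = 4.71e-07), MARS1 (-0.31, SE 0.025, adjusted p = 4.79e-08) and TARS1 (-0.26, SE 0.037, adjusted p = 3.85e-05). TARS1, the threonine enzyme, was at 13.90, 13.91 and 13.88 in HL-60 with DMSO and at 13.92, 13.88 and 13.96 with DAC. In MOLM-13 it was at 14.48, 14.53 and 14.55 with DMSO, at 14.32, 14.29 and 14.24 with DAC and at 14.26, 14.22 and 14.22 with NTX-301. Quantile normalization left 10 members with a different DAC effect, 9 of them cytosolic enzymes, of which 1 was more positive in MOLM-13. The share of all genes called on that scaling is not given. Single libraries ended the calls of CARS1 (HL-60 DMSO replicate 2 or 3, HL-60 DAC replicate 1 or 2, MOLM-13 DMSO replicate 3, MOLM-13 DAC replicate 2 or 3), FARSB (HL-60 DMSO or DAC replicate 3) and RARS1 (HL-60 DMSO or DAC replicate 3, MOLM-13 DMSO replicate 2 or DAC replicate 3).

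For NTX-301, 21 members passed, 19 more negative and 2 more positive in MOLM-13, against 40% of all genes, 22.4% more negative and 17.6% more positive, and 50.5% of those in the range, 32.5% more negative. YARS1 (-0.29), TARS1 (-0.25) and FARSA (-0.24) differed most in the negative direction. FARSA, the catalytic subunit of the phenylalanine enzyme, was at 14.10, 14.06 and 14.17 in HL-60 with DMSO and at 14.10, 14.14 and 14.15 with NTX-301. For MOLM-13 the values were 13.97, 13.96 and 14.01 with DMSO and 13.76, 13.75 and 13.78 with NTX-301, where the groups stood apart. VARS1 (0.13, SE 0.039, adjusted p = 0.0119) and WARS1 (0.11, SE 0.029, adjusted p = 0.00399) were the 2 whose fall was deeper in HL-60. With quantile normalization the split of calls was 14 more negative and 5 more positive. The cytosolic minus mitochondrial difference of medians was -0.171 between lines for DAC and -0.103 for NTX-301; the latter was -0.064 without HL-60 DMSO replicate 3. The SARS1 and SARS2 calls (-0.13 each) were lost under 9 and 8 of 24 alternatives. Among these were HL-60 DMSO replicate 3, HL-60 NTX-301 replicate 3, and MOLM-13 DMSO or NTX-301 replicate 2 or 3 for SARS1, and HL-60 DMSO replicate 1 or 2, HL-60 NTX-301 replicate 1 or 3, MOLM-13 DMSO replicate 1 and MOLM-13 NTX-301 replicate 1 or 2 for SARS2.

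**Figure D4:**
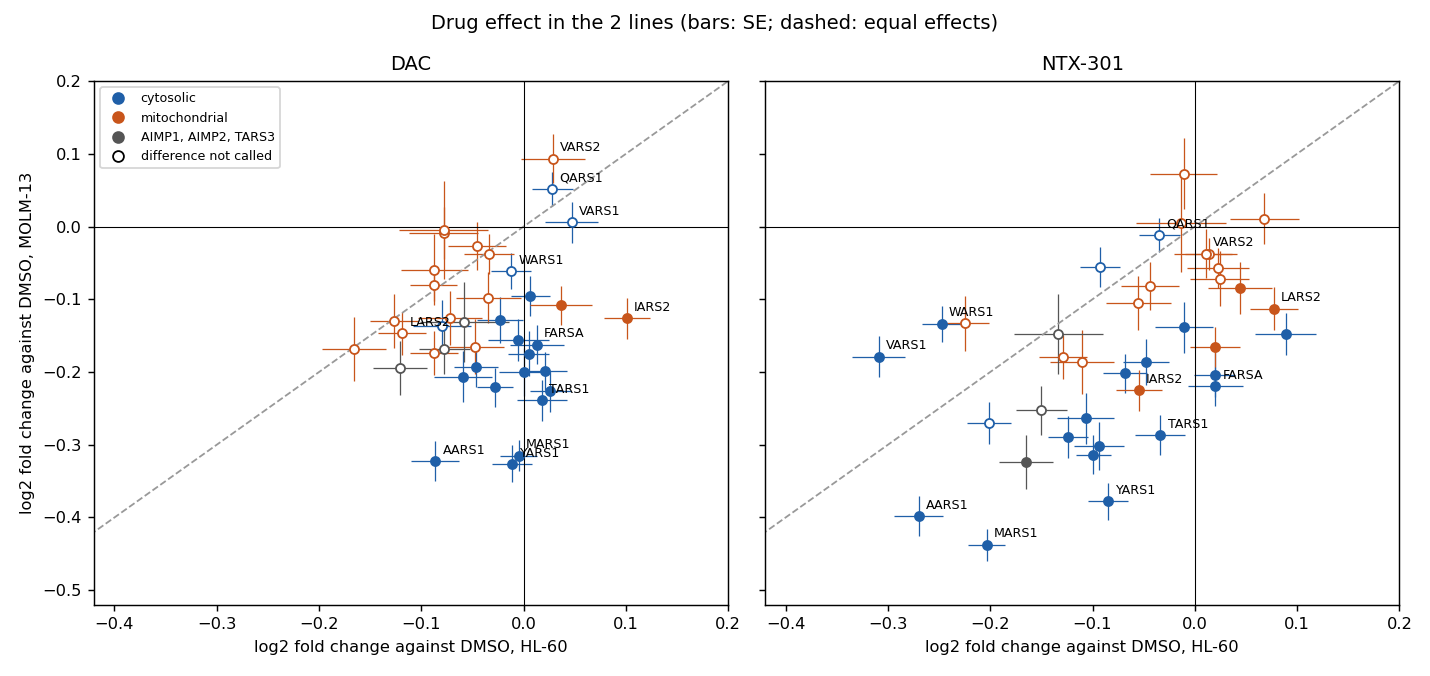
Log2 fold change against DMSO in HL-60 (x axis) and in MOLM-13 (y axis) for each member, DAC on the left and NTX-301 on the right, with SE bars; the dashed line marks equal effects. Filled points differed between the lines by the test, and most cytosolic enzymes lie below the line, whereas VARS1 and WARS1 lie above it with NTX-301.

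Across the 4 drug comparisons, 6 members fell in all of them: AARS1, EARS2, MARS2, YARS2, AIMP1 and AIMP2. A further 9 fell in 3, namely EPRS1, GARS1, IARS1, LARS1, MARS1, NARS1, RARS1, YARS1 and LARS2. Of the 15474 genes tested in both lines, 3.55% fell in all 4 and 7.39% in 3. With NTX-301, 17 of 38 members fell in both lines (10.5% of those genes), and with DAC 8 did (6.17%). Genes in the members' range were called lower more often than all genes, 34.2% and 39.9% in MOLM-13 and 19.5% and 30% in HL-60, DAC first. No share over that range is given for the counts shared by comparisons. The drugs of a line share its DMSO samples, so the counts over 3 or 4 comparisons are not independent. The class II enzymes, which share an active site fold, numbered 9 in the cytosol, and all 9 fell in MOLM-13 with DAC, as did 7 of the 10 class I enzymes (21.2% of all genes). With NTX-301 there, 8 of 9 and 9 of 10 fell (24.8% of all genes). In HL-60, 1 class II enzyme of 9 fell with DAC (AARS1), and with NTX-301 4 of 9 class II and 8 of 10 class I enzymes fell (19.2% of all genes). EPRS1, which joins the glutamate and proline enzymes, was counted in class I only. Whether the classes differ was not tested.

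The other genes of the pathway came from lists on tRNA charging, transport and the ATF4 response. Beside their counts, the share of all genes called lower was 21.2% and 24.8% in MOLM-13 with DAC and NTX-301, and 12.6% and 19.2% in HL-60; called higher were 11.6% and 18.3% in HL-60. Of 12 further charging and editing factors, 10 fell in MOLM-13 with DAC and 8 with NTX-301. EEF1E1, the third scaffold protein of the complex, fell by -0.36 and -0.43. In HL-60, 4 of the 12 fell and SEPSECS (0.09) rose with DAC, led by GATB (-0.25, SE 0.026), a subunit of the complex that makes mitochondrial glutaminyl-tRNA. With NTX-301, 4 fell and DTD1 (0.09), a proofreading enzyme, rose. Of 19 genes of tRNA transcription, processing and export, 14 fell in MOLM-13 with DAC and 15 with NTX-301. Among them were POP1, a subunit of RNase P (-0.27 and -0.30), and XPOT, the tRNA exporter (-0.23 and -0.25). In HL-60, 2 fell and 1 rose with DAC, near the background, and 6 fell and 2 rose with NTX-301. Of 6 factors that deliver charged tRNA to the ribosome, 3 fell in MOLM-13 with each drug, and 4 and 5 fell in HL-60. TSFM, a mitochondrial elongation factor, fell by -0.28 and -0.26 in MOLM-13.

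ATF4 itself fell in all 4 comparisons, by -0.14 and -0.27 in HL-60 and by -0.41 and -0.39 in MOLM-13, DAC first. Of the 12 cytosolic synthetases known as its targets, 11 fell in MOLM-13 with DAC (median -0.21) and 12 with NTX-301 (median -0.29). Those counts were 1 and 9 in HL-60. Of all 19 cytosolic enzymes, the targets among them, 16 and 17 fell in MOLM-13 (medians -0.19 and -0.22) and 1 and 12 in HL-60. In MOLM-13 the falls were thus not confined to the targets. The list of targets was drawn up with results of these data known. Of 14 genes of the wider ATF4 response, ATF4 included, 12 fell in HL-60 with NTX-301, and 4 fell and 3 rose with DAC. In MOLM-13, 9 fell and 2 rose with DAC, and 8 fell and SESN2 rose with NTX-301. Against these counts stand the shares of all genes called lower, 12.6% and 19.2% for HL-60 (DAC first) and 21.2% and 24.8% for MOLM-13. Called higher were 11.6% and 18.3% for HL-60, 15.4% and 20.3% for MOLM-13. PSAT1, an enzyme of serine synthesis, fell by -0.36 and -0.47 in MOLM-13 and by -0.32 in HL-60 with NTX-301. ASNS, asparagine synthetase, rose in HL-60 with DAC (0.30, SE 0.042) and fell in MOLM-13 with both drugs (-0.31 and -0.42). SESN2, a sensor of leucine and also a target of p53, rose in MOLM-13 (0.32 and 0.37) and fell in HL-60 with NTX-301 (-0.21). Whether ATF4 has a part in the falls of the synthetases was not tested. In these bulk samples less RNA per cell and a change in which cells were present cannot be told apart.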

How the data were processed

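Values came from 18 RNA samples, 3 in each of 6 groups. The authors deposited 1 value per gene and sample on a log2 scale; the scale was read from the values and the normalization method is not given in the sources used here. Per the submitters' processing notes, FastQC, Trimmomatic 0.38, HISAT2, StringTie and hg19 were named without a role or order. The 2 lines held different gene sets and appeared to be normalized apart, and no depth can be had from the files. The deposited values of low genes are drawn to their own mean: the median range over the samples of HL-60 was 0.021 for genes with a mean of 0 to 3 and 0.21 for those of 8 to 12 (0.027 and 0.26 in MOLM-13).

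Groups were compared with limma 3.58.1 in R 4.3.3 on those values (lmFit, eBayes with trend, two-sided), with the 9 samples of a line in 1 fit and 6 residual degrees of freedom. Adjustment was by Benjamini-Hochberg across every gene in the fit, and 0.05 was the threshold. A gene entered the fit when 3 or more samples had a linear value of 1 or more, which kept 17046 (HL-60) and 17475 (MOLM-13). Differences between lines came from 1 fit of all 18 samples over 15474 genes. Intervals are at 95%. In data simulated for DAC against DMSO with 200 changed genes, limma recovered 29.5%, 88.6% and 100% of changes of 0.1, 0.25 and 0.5 among 17046 HL-60 genes, and 15%, 82.4% and 98.5% among 17475 MOLM-13 genes.

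Promoters were taken from a RefSeq table of GRCh38.p14 by gene symbol, and exon overlaps from GENCODE 29; the deposited files carry no coordinates. Values in every sample are given for the 3 highest and 3 lowest called members without overlap in each comparison within a line, the 3 highest and 3 lowest called between lines, and EPRS1, GARS1, KARS1, QARS1, WARS1, TARS3, AIMP1 and AIMP2. The members and gene lists were chosen with earlier results of these data known. Alternatives were other scalings, no filter, a pseudocount of 1, no variance trend, a replicate block, the 2 groups alone and leaving out each replicate. Some genes of the related lists are not reported here by name.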

Additional observations from a re-analysis of the deposited data

Results flagged for a closer look

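Each result here is a drug effect that differed between the lines in a direct test of the difference (limma, 1 fit of 18 samples, with the HL-60 effect taken from the MOLM-13 effect). For DAC, 17 of 38 members differed (44.7%), against 30% of all genes and 38.7% of those in the members' range. The largest differences were -0.31 for YARS1, -0.31 for MARS1 and -0.26 for TARS1. All 3 fell in every DAC sample of MOLM-13 against its DMSO samples, and in HL-60 their DAC values were -0.01, -0.0047 and 0.02. For NTX-301, 21 of 38 members differed (55.3%), against 40% of all genes and 50.5% of those in the members' range. In either direction both shares are near those of the range and are not taken as results about the family. All 17 called for DAC and 19 for NTX-301 were more negative in MOLM-13, as were 26.5% and 32.5% of genes in the range. After quantile normalization 9 of the 17 and 16 of the 21 kept their call and direction. The effect of YARS1 was more negative in MOLM-13 by -0.29, that of TARS1 by -0.25 and that of FARSA by -0.24. In the other direction stood VARS1 with 0.13 and WARS1 with 0.11, which fell in both lines and more so in HL-60. Dose and line cannot be told apart, since the stated concentration differed between the lines.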

How the results depend on the processing

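The sizes are small. In the simulated data changes of 0.1 were mostly missed, in MOLM-13 more than in HL-60. Those data held only 200 changed genes, whereas 24.2% of genes passed in HL-60 and 36.6% in MOLM-13 with DAC. The adjusted threshold was thus stricter in the simulation, and its recovery does not give the limit of these comparisons. Without a filter, with a pseudocount of 1 and with the 2 groups alone, all counts and differences of medians kept their side. Replicate numbers did not pair the samples, since correlations of same-numbered deviations ran from -0.16 to 0.12. With the replicate block, the members called in MOLM-13 with DAC were 27 and those for the between-line NTX-301 effect 20, and between the drugs in MOLM-13 calls were 3 lower and 1 higher; of the calls on single members given in full, those of VARS2 in MOLM-13 were lost (0.093 with DAC and -0.13 between drugs, each with an adjusted p of 0.080 by limma).

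Quantile normalization moved most. It changed 20 of 28 called values in MOLM-13 with DAC and 20 of 27 with NTX-301 by over 1.5 times, 4 of 20 in HL-60 with NTX-301 and 0 of 9 with DAC; 19, 21, 19 and 8 of them kept their call and direction. The difference of medians became -0.069 in HL-60 with NTX-301, -0.099 there between drugs, -0.022 and -0.080 in MOLM-13 with DAC and NTX-301, and -0.10 and -0.064 between lines. Mitochondrial calls became 4 and 4 in MOLM-13 and 1 between the drugs. For the DAC effect between lines 10 members passed, 9 cytosolic and 1 mitochondrial. Calls in MOLM-13 with DAC were 19 lower and 3 higher for all members, 13 lower and 2 higher for cytosolic and 3 lower and 1 higher for mitochondrial ones. For the NTX-301 effect between lines mitochondrial calls were 3 lower and 1 higher. Cytosolic calls between the drugs in HL-60 were 10 lower and 3 higher, and for the NTX-301 effect between lines 10 and 4. Centring gave 12 mitochondrial calls in MOLM-13 with NTX-301 and 1 between the drugs, and in HL-60 with NTX-301 all 5 were lower. Without the trend the count between the drugs was 1. Signs of uncalled values turned for KARS1 in HL-60 (-0.00056 with DAC by quantile normalization, -0.0088 with NTX-301 by centring), and by quantile normalization for WARS1 with DAC (0.0051 in HL-60, 0.0053 in MOLM-13), QARS1 in MOLM-13 with NTX-301 (0.090, then called) and EPRS1 between lines with NTX-301 (0.011). The cause was not tested. Shares and medians over all genes after quantile normalization are not given, so the counts on that scaling stand without a background.

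Leaving out 1 replicate gave 0 to 3 cytosolic calls in HL-60 with DAC, 6 to 9 mitochondrial calls falling or rising in MOLM-13 with DAC, and 2 to 6 members and 0 to 2 mitochondrial enzymes between the drugs in MOLM-13. The difference of medians ranged from -0.138 to -0.104 between the drugs in HL-60, from -0.147 to -0.113 in MOLM-13 with NTX-301 and from -0.119 to -0.064 between lines with NTX-301. KARS1 in HL-60 with DAC ranged from -0.013 (without DAC replicate 3) to 0.023. TARS3 between lines with NTX-301 ranged from -0.057 to 0.024 and turned to 0.024, 0.012 and 0.013 without HL-60 DMSO replicate 3, MOLM-13 DMSO replicate 2 and MOLM-13 NTX-301 replicate 3.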
